A study of Mus musculus with 16 samples.

Results

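The 10 genes described here encode the chains of platelet-derived growth factor (Pdgfa, Pdgfb, Pdgfc and Pdgfd), both PDGF receptors (Pdgfra and Pdgfrb) and 4 fibroblast growth factors (Fgf1, Fgf2, Fgf7 and Fgf10). They were taken by symbol from the 20863 genes of the deposited array table, and all 10 were measured. Where a symbol had several spots, the spot with the highest mean over the 16 arrays stood for the gene. Messenger RNA had been measured in whole lungs of C57BL/6 mice aged 9 to 12 weeks on 1-colour Agilent arrays. The 4 groups were bleomycin with LNA-miR-199a-5p (5 arrays), bleomycin with LNA-control (5 arrays), PBS with LNA-miR-199a-5p (3 arrays) and PBS with LNA-control (3 arrays). LNA-miR-199a-5p is a locked nucleic acid oligonucleotide directed against the microRNA miR-199a-5p. Bleomycin breaks DNA and is given to mice to produce lung injury and then scarring, and PBS is its vehicle. Every group received an LNA into the trachea at 5 mg/kg, with doses 4 and 2 days ahead of bleomycin (1 unit/kg) or PBS and another 4 days later, so no group went without an oligonucleotide. The day of lung collection and the sex of the mice are not in the labels. The series title puts the question as the impact of silencing this microRNA on the fibrosis that bleomycin brings on.

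PDGF chains form dimers that bind receptor tyrosine kinases on mesenchymal cells. PDGF-A and PDGF-C act mainly through the alpha receptor of fibroblasts, and PDGF-B and PDGF-D act mainly through the beta receptor of pericytes and smooth muscle. PDGF-C and PDGF-D are secreted in a latent form and need a protease to release them. Fibroblast growth factors bind receptor tyrosine kinases together with heparan sulfate. FGF7 and FGF10 are made by lung mesenchyme and act on the neighbouring epithelium, whereas FGF1 and FGF2 lack a classical secretion signal and act on many cell types.

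The microRNA that the LNA was directed against is shown first, because it defines the groups. RefSeq (GRCm38.p6) holds its mature sequence at Mir199a-1 (chr9:21496537-21496559, minus strand) and at Mir199a-2 (chr1:162217844-162217866, plus strand). The capitals mark the seed, bases 2 to 8 from the 5′ end, through which a microRNA mostly finds its target messages.
miR-199a-5p: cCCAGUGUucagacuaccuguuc
The mature microRNA itself was not analysed here, so its level could not be set against the LNA labels. Whether the seed pairs with any message of the 10 genes was not analysed either.

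RNA integrity numbers in the labels ran from 7 to 10. They averaged 9.0 in bleomycin lungs given LNA-miR-199a-5p, 8.2 in bleomycin lungs given LNA-control and 8.33 in each PBS group. The labels do not say that each replicate is a separate animal, so the p-values measure the spread between these samples, which may be technical. The 6 measured genes of a type 2 alveolar epithelium list averaged 15.66 to 15.95 on every array on the log2 scale, so markers of the labelled tissue were bright throughout. Some arrays stood apart in transcripts of other tissues. Bleomycin replicates 1 and 4 with LNA-control read 8.48 and 9.29 for the mean of a thymus list, while the remaining 14 arrays read 5.96 to 6.38. A fat list averaged 9.73 on PBS replicate 3 with LNA-miR-199a-5p and 9.76 on PBS replicate 3 with LNA-control, against 11.02 to 12.41 elsewhere. A squamous epithelium list averaged 5.99 on PBS replicate 3 with LNA-miR-199a-5p and 8.76 to 11.72 on the other 15 arrays. Calls and counts that change without the thymus-rich arrays or without the third PBS arrays are given with the results or in the closing part on processing.

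**Figure D1:**
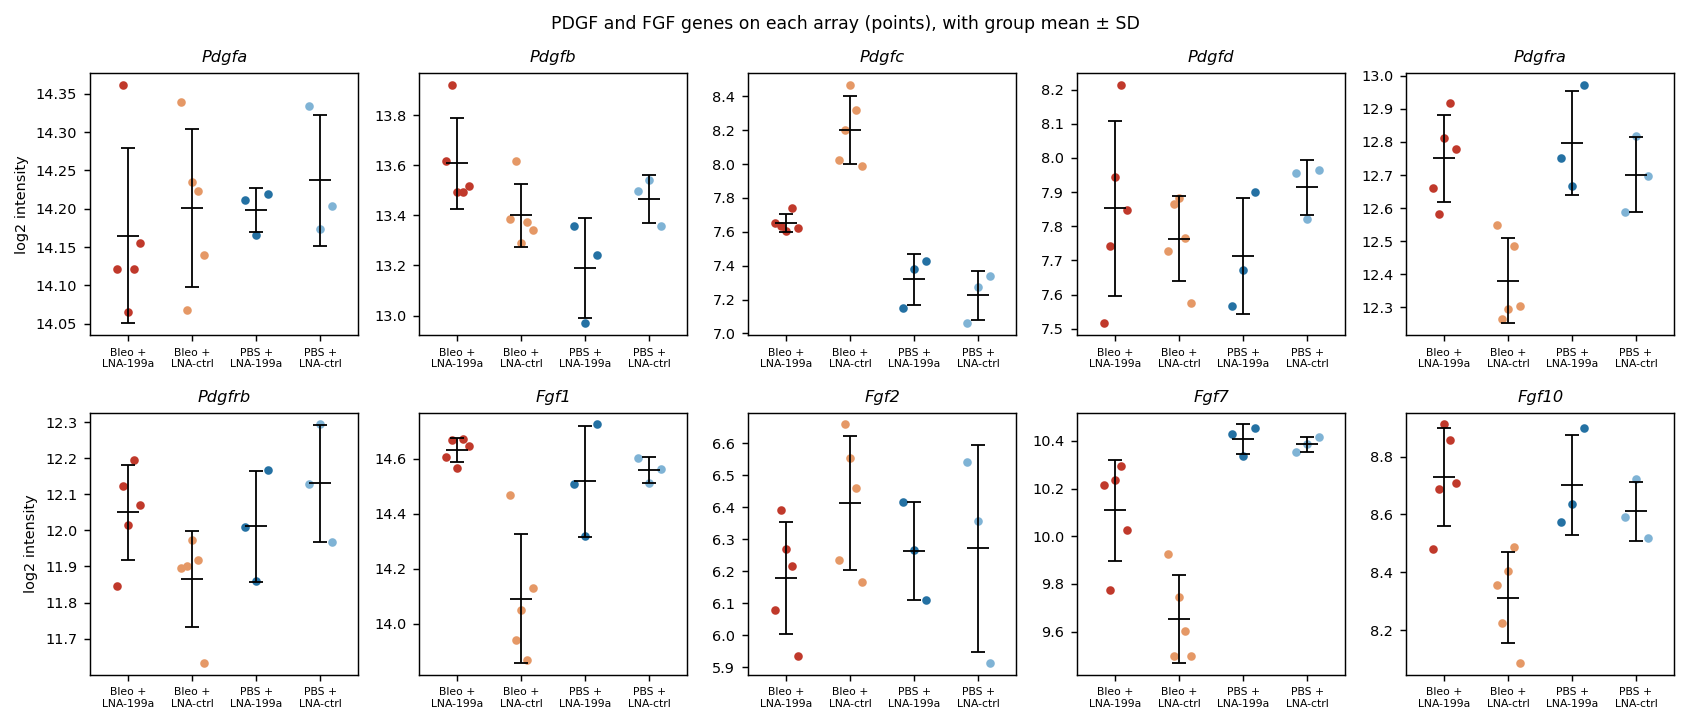
Each panel plots 1 of the 10 genes, with log2 intensity on the vertical axis and the 4 groups along the horizontal axis, 5 arrays in each bleomycin group and 3 in each PBS group. Points are arrays, and the bars are the group mean ± SD. Pdgfc was highest and Fgf7, Pdgfra and Fgf10 had their lowest group means in bleomycin lungs given LNA-control, while the 4 group means of Pdgfa lay between 14.16 and 14.24.

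Pdgfc, the latent ligand of the alpha receptor, separated the groups most clearly. Its log2 intensity was 7.61, 7.74, 7.62, 7.65 and 7.63 in bleomycin lungs given LNA-miR-199a-5p. In bleomycin lungs given LNA-control it was 8.32, 7.99, 8.03, 8.20 and 8.47. PBS lungs read 7.38, 7.43 and 7.15 with LNA-miR-199a-5p and 7.34, 7.06 and 7.28 with LNA-control. All 5 bleomycin arrays with LNA-control lay above every other array, and the bleomycin arrays with LNA-miR-199a-5p lay between them and the PBS arrays without touching either. The group means fell in the order bleomycin with LNA-control, bleomycin with LNA-miR-199a-5p, PBS with LNA-miR-199a-5p and PBS with LNA-control, and only the last 2 of these overlapped.

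With LNA-control, Pdgfc rose after bleomycin by 0.98 ± 0.11 on the log2 scale (estimate ± standard error throughout), which is 1.97-fold (limma adjusted p = 1.23e-05). Within bleomycin lungs it was 1.46-fold lower with LNA-miR-199a-5p than with LNA-control, a difference of -0.55 ± 0.09 (limma adjusted p = 0.000546). With LNA-miR-199a-5p it still rose after bleomycin, by 0.33 ± 0.11 (limma adjusted p = 0.0491), but this call was lost without any 1 of 13 of the 16 arrays. It remained only without bleomycin replicate 2, 3 or 5 with LNA-control, and the estimates ran from 0.25 to 0.39. Bleomycin lungs given LNA-miR-199a-5p also stood above PBS lungs given LNA-control, by 0.43 ± 0.11 (limma adjusted p = 0.0162), a call that ended without PBS replicate 2 (adjusted p = 0.0851) or 3 (adjusted p = 0.0630) with LNA-control. These are whole lungs, so fewer cells of a type and less RNA per cell cannot be told apart here or in any result below. The promoter of Pdgfc is shown because this gene had the clearest change of the 10. It runs from 250 bases before to 50 bases after the RefSeq transcript start (chr3:81036166-81036465, plus strand, GRCm38.p6), and the capitals mark a CArG box, the element read by serum response factor, that begins 17 bases before the start.
Pdgfc promoter: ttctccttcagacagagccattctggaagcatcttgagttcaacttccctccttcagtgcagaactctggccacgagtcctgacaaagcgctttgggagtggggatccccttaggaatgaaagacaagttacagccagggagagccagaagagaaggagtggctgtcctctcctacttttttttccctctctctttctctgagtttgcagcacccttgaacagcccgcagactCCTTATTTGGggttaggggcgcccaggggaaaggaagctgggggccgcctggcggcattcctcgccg
A CArG box on either strand was present in 1.63% of the 32851 RefSeq promoter windows of this length. It was in none of the 7 other windows searched for the genes described here, which did not cover Pdgfb, Pdgfrb or Fgf1.

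Pdgfb, which endothelium and platelets make and which recruits pericytes, rose in 1 comparison. It read 13.49, 13.49, 13.52, 13.62 and 13.92 in bleomycin lungs given LNA-miR-199a-5p and 13.37, 13.34, 13.38, 13.61 and 13.29 in those given LNA-control. The PBS arrays read 12.97, 13.24 and 13.36 with LNA-miR-199a-5p and 13.36, 13.50 and 13.54 with LNA-control. The PBS arrays with LNA-miR-199a-5p were the low ones, and they overlapped neither the bleomycin arrays of the same LNA nor the PBS arrays with LNA-control. With LNA-miR-199a-5p, Pdgfb rose after bleomycin by 0.42 ± 0.11 (1.34-fold, limma adjusted p = 0.0240). The call ended without PBS replicate 1 (0.31, adjusted p = 0.117) or 2 (0.45, adjusted p = 0.0532) with that LNA. With LNA-control the bleomycin difference was -0.07 (95% interval -0.30 to 0.17). Its other spot, at a mean of 7.52, gave 0.25 for the bleomycin difference with LNA-miR-199a-5p and was not called (adjusted p = 0.227).

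Pdgfa, the alveolar epithelial ligand of the alpha receptor, did not pass in any of the 6 comparisons. It averaged 14.16 ± 0.11 and 14.20 ± 0.10 in bleomycin lungs given LNA-miR-199a-5p and LNA-control (SD, n = 5 each), and 14.20 ± 0.03 and 14.24 ± 0.09 in the PBS lungs in the same order (SD, n = 3 each). The 95% interval of its bleomycin difference with LNA-control ran from -0.20 to 0.13 and that of the LNA difference in bleomycin lungs from -0.18 to 0.11. Pdgfd, the latent ligand of the beta receptor, passed in none either. Its group means were 7.85 ± 0.26 and 7.76 ± 0.12 in bleomycin lungs and 7.71 ± 0.17 and 7.91 ± 0.08 in PBS lungs, in the same order of LNAs. Its intervals were wider, from -0.42 to 0.12 for bleomycin with LNA-control and from -0.14 to 0.32 for the LNA difference in bleomycin lungs.

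Pdgfra, the alpha receptor that marks lung fibroblasts, was low in bleomycin lungs given LNA-control. It read 12.81, 12.92, 12.78, 12.66 and 12.58 in bleomycin lungs given LNA-miR-199a-5p, against 12.49, 12.30, 12.55, 12.27 and 12.30 in those given LNA-control. The PBS lungs read 12.67, 12.97 and 12.75 with LNA-miR-199a-5p and 12.70, 12.59 and 12.82 with LNA-control. All 5 arrays of bleomycin with LNA-control lay below all 11 others, which overlapped among themselves. Within bleomycin lungs Pdgfra was 1.29-fold higher with LNA-miR-199a-5p, a difference of 0.37 ± 0.08 (limma adjusted p = 0.00504). With LNA-control it fell after bleomycin by 0.32 ± 0.10 on the log2 scale (limma adjusted p = 0.0315). That second call ended without bleomycin replicate 2 (adjusted p = 0.0557), 4 (0.0705) or 5 (0.0709) with LNA-control, and without PBS replicate 1 (0.0835) or 3 (0.169) with LNA-control, at estimates of -0.38 to -0.26 over all 16 omissions. It also ended without both thymus-rich arrays (-0.32, adjusted p = 0.0913), without the third PBS arrays (-0.26, adjusted p = 0.185) and under the replicate block (-0.25, adjusted p = 0.144). The mean of its spots, or the means of the fat and heart muscle lists as covariates, ended it too. It was kept in 8 of 13 other settings. The beta receptor Pdgfrb, which marks pericytes, averaged 12.05 ± 0.13 and 11.86 ± 0.13 in bleomycin lungs with LNA-miR-199a-5p and LNA-control, and 12.01 ± 0.15 and 12.13 ± 0.16 in PBS lungs in that order. It passed in none of the 6 comparisons. Its bleomycin difference with LNA-control was -0.27 (95% interval -0.48 to -0.05, limma adjusted p = 0.0913) and its LNA difference in bleomycin lungs 0.19 (95% interval -0.004 to 0.37, limma adjusted p = 0.145).

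Fgf7, the keratinocyte growth factor, had the second clearest separation of the groups. It read 10.24, 10.30, 10.03, 10.21 and 9.77 in bleomycin lungs given LNA-miR-199a-5p, against 9.60, 9.50, 9.93, 9.50 and 9.74 in those given LNA-control. The 6 PBS arrays read 10.34, 10.46 and 10.43 with LNA-miR-199a-5p and 10.42, 10.35 and 10.39 with LNA-control. Every PBS array lay above every bleomycin array, and replicate 5 with LNA-miR-199a-5p fell among the bleomycin arrays with LNA-control. With LNA-control, Fgf7 fell after bleomycin by 0.73 ± 0.12 on the log2 scale, or 1.66-fold (limma adjusted p = 0.000352). Within bleomycin lungs it was 1.37-fold higher with LNA-miR-199a-5p, a difference of 0.46 ± 0.10 (limma adjusted p = 0.00380). With LNA-miR-199a-5p the bleomycin difference was -0.30 (95% interval -0.54 to -0.05) and was not called (limma adjusted p = 0.0951), although its arrays did not overlap. Against PBS lungs given LNA-control, bleomycin lungs given LNA-miR-199a-5p differed by -0.28 (limma adjusted p = 0.118).

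Fgf10, the mesenchymal factor of lung branching, read 8.91, 8.86, 8.71, 8.48 and 8.69 in bleomycin lungs given LNA-miR-199a-5p, against 8.49, 8.09, 8.36, 8.22 and 8.40 in those given LNA-control. PBS lungs read 8.63, 8.90 and 8.58 with LNA-miR-199a-5p and 8.52, 8.59 and 8.72 with LNA-control. The bleomycin groups touched at 1 array each, replicate 4 with LNA-miR-199a-5p and replicate 1 with LNA-control. Within bleomycin lungs Fgf10 was 1.34-fold higher with LNA-miR-199a-5p, a difference of 0.42 ± 0.10 (limma adjusted p = 0.00523). The bleomycin difference with LNA-control was -0.30 ± 0.11 and was not called (limma adjusted p = 0.0784), although the arrays did not overlap. It was called with the mean of its 10 spots (-0.27, adjusted p = 0.0371). In bleomycin lungs 4 of the 10 genes were higher with LNA-miR-199a-5p, and the promoter of Fgf1, which had the largest such difference, was not searched. The promoters of the other 3, Pdgfra, Fgf7 and Fgf10, are set side by side. They come from RefSeq (GRCm38.p6, plus strand) with the same window, at chr5:75152001-75152300, chr2:126034408-126034707 and chr13:118714449-118714748. Capitals mark CCAAT in Fgf7, which begins 53 bases before the transcript start, and, in Fgf10, GGGCGG as read on the reverse strand.
Pdgfra promoter: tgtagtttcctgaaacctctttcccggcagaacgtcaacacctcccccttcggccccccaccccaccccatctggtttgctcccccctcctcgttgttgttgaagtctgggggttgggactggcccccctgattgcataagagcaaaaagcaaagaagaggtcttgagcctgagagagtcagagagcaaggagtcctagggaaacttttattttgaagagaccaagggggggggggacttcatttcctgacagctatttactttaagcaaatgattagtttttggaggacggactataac
Fgf7 promoter: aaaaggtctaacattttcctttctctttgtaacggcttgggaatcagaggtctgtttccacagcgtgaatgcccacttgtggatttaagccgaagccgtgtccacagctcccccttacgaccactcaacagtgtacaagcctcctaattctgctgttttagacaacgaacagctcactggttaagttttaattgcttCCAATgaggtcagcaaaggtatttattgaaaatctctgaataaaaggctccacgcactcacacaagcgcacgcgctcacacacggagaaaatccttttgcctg
Fgf10 promoter: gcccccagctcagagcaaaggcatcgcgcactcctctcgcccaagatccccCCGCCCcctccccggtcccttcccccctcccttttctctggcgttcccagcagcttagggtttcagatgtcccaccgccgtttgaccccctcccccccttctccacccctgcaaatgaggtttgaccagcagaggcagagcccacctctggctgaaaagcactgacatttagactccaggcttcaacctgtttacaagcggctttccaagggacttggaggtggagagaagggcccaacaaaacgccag
Both strands were searched for a TATA box spelled TATAAA, present in 13.6% of all 32851 windows, and for CCAAT, present in 37.4%. They were also searched for the GC box GGGCGG, present in 35.7%, for the AP-1 element TGANTCA, present in 7.81%, and for the CArG box. No motif was common to the 3 windows, and the Pdgfra window held no match. That window lies after the first base of the Pdgfra gene in RefSeq (chr5:75151322), so the stretch before that base was not searched. The windows searched here numbered 8, for 7 of the 10 genes. No window of Pdgfb, Pdgfrb or Fgf1 was searched.

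Fgf1, the acidic fibroblast growth factor, read 14.57, 14.67, 14.65, 14.61 and 14.67 in bleomycin lungs given LNA-miR-199a-5p, against 13.87, 14.13, 14.47, 13.94 and 14.05 in those given LNA-control. PBS lungs read 14.32, 14.72 and 14.51 with LNA-miR-199a-5p and 14.56, 14.60 and 14.51 with LNA-control. Bleomycin lungs given LNA-control were low and also the most spread, with replicate 3 close to the other groups. Within bleomycin lungs Fgf1 was 1.45-fold higher with LNA-miR-199a-5p, a difference of 0.54 ± 0.10 (limma adjusted p = 0.00111). With LNA-control it fell after bleomycin by 0.47 ± 0.11 on the log2 scale (limma adjusted p = 0.00874). Without the thymus-rich arrays the second difference was -0.34 and its call was lost (adjusted p = 0.0729), while the first was 0.41 and kept its call (adjusted p = 0.0188). The lower of its 2 spots, with a mean of 7.76 against 14.43, gave -0.07 for the LNA difference in bleomycin lungs (adjusted p = 0.748), so the call belongs to the brighter spot. With the mean of both spots the LNA difference was 0.23 and was not called (adjusted p = 0.131).

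Fgf2, the basic fibroblast growth factor, lay low on a scale whose lowest value in the table was 4.61. It averaged 6.18 ± 0.18 in bleomycin lungs given LNA-miR-199a-5p and 6.41 ± 0.21 in those given LNA-control (SD, n = 5 each), and 6.26 ± 0.15 and 6.27 ± 0.32 in PBS lungs in that order (SD, n = 3 each). No comparison passed on the spot used. The LNA difference in bleomycin lungs was -0.24 (95% interval -0.50 to 0.03, limma adjusted p = 0.187). It was called with the mean of its 11 spots (-0.25, adjusted p = 0.0359).

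Genes with many spots allowed a check within the array. When every named spot was fitted on its own, 25% of all 31465 such spots were called for the LNA difference in bleomycin lungs, 13.1% higher and 11.9% lower. For bleomycin with LNA-control 16.9% were called, 9.51% higher and 7.43% lower. For Pdgfra, all 10 spots were above 0 in the LNA comparison (0.28 to 0.40, 6 called) and all 10 below 0 for bleomycin with LNA-control (-0.38 to -0.22, 3 called). Fgf10 gave 10 of 10 spots above 0 in the LNA comparison (0.26 to 0.42, 9 called) and 10 of 10 below 0 for bleomycin with LNA-control (-0.33 to -0.19, 3 called). Of the 11 Fgf2 spots, 10 were below 0 in the LNA comparison and 4 were called lower. Whether spots of a gene carry the same probe is not given in the sources used here, so they may be repeats and share each array's RNA. Pdgfc, Pdgfd, Pdgfrb and Fgf7 rest on 1 spot each.

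**Figure D2:**
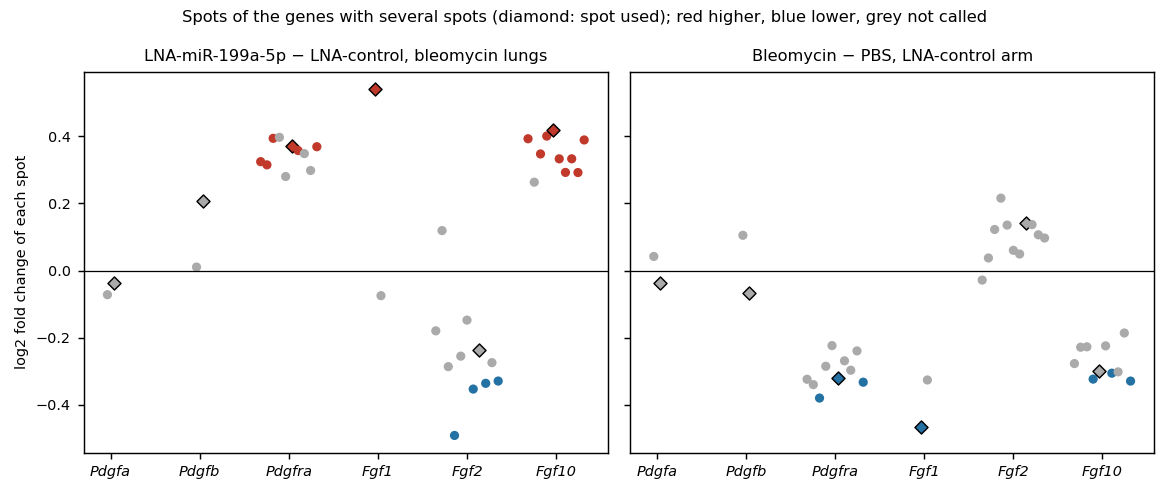
Points are single spots of the 6 genes that had more than 1, with the log2 fold change on the vertical axis; diamonds are the spots used for the gene. The left panel gives the LNA difference in bleomycin lungs, where all Pdgfra and Fgf10 spots lie above 0, and the right panel sets bleomycin against PBS with LNA-control, where they all lie below 0.

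Taking the comparisons in turn, bleomycin with LNA-control changed 4 of the 10 genes. Pdgfc rose and Pdgfra, Fgf1 and Fgf7 fell, where 17.5% of all genes tested were called, 9.6% higher and 7.9% lower. The median log2 fold change was -0.21 over the 10 genes and 0.00 over all genes. The arrays separated without overlap for 5 of the 10, the called genes and Fgf10, and for 25.3% of all genes. Without the thymus-rich arrays 2 calls remained, Pdgfc (0.94, limma adjusted p = 0.000310) and Fgf7 (-0.66, limma adjusted p = 0.00500). These also remained under each single array left out.

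LNA-miR-199a-5p changed 5 of the 10 genes in bleomycin lungs relative to LNA-control. Pdgfc was lower and Pdgfra, Fgf1, Fgf7 and Fgf10 were higher. This comparison called 24.9% of all genes, 13.4% higher and 11.4% lower. The median log2 fold change was 0.20 over the 10 genes and 0.01 over all genes. The groups did not overlap for Pdgfc, Pdgfra and Fgf1, against 13.8% of all genes. All 5 calls held without each single array and without the thymus-rich arrays. With the means of the fat and heart muscle lists as covariates none of the 5 was called and only 134 of all genes were, at estimates of -0.35 for Pdgfc, 0.41 for Pdgfra, 0.30 for Fgf1, 0.58 for Fgf7 and 0.44 for Fgf10.

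With LNA-miR-199a-5p, bleomycin against PBS raised 2 of the 10, Pdgfb and Pdgfc, and lowered none, where 13.4% of all genes were called, 7.31% higher and 6.04% lower. The arrays did not overlap for these and for Fgf7, and for 20.7% of all genes. The medians were 0.03 over the 10 genes and 0.01 over all genes. The LNA difference in PBS lungs was called for none of the 10 by limma. Only Pdgfb had an unadjusted p under 0.05 (difference -0.28, 95% interval -0.54 to -0.01, limma adjusted p = 0.656). Its arrays did not overlap either, nor did those of 18.1% of all genes. In this comparison 0.0479% of all genes were called (0.0336% higher and 0.0144% lower), which is 10 genes, or 3 with the replicate number as a block, while 1526 genes had an unadjusted p under 0.05. Bleomycin lungs given LNA-miR-199a-5p differed from PBS lungs given LNA-control in 1 of the 10, Pdgfc, where 14.6% of all genes were called, 8.39% higher and 6.16% lower. Arrays did not overlap for Pdgfc and Fgf7, and for 25.8% of all genes. These comparisons share arrays with each other, so their counts are not independent.

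The interaction asked whether the bleomycin difference itself differed between the LNAs. It was called for 2 of the 10 genes, where 7.01% of all genes were called, 3.07% positive and 3.94% negative. For Pdgfc it was -0.64 ± 0.15 (limma adjusted p = 0.0186), with a bleomycin difference of 0.33 with LNA-miR-199a-5p and 0.98 with LNA-control. For Fgf1 it was 0.58 ± 0.16 (limma adjusted p = 0.0403), with bleomycin differences of 0.11 and -0.47 in that order. With the replicate number as a block, the Fgf1 interaction was not called (adjusted p = 0.0517). Its call was kept in only 6 of 12 other settings. It was also lost with the RNA integrity number as covariate and with the mean of its spots. Leaving out the third PBS arrays or the thymus-rich arrays ended it as well. With the fat and heart muscle covariates the interaction was called for 0 of the 10 genes, so Pdgfc lost its call there too. The Pdgfc call ended without PBS replicate 2 with LNA-control (-0.56, adjusted p = 0.0670), without PBS replicate 1 (-0.61, adjusted p = 0.0511) or 2 (-0.59, adjusted p = 0.0550) with LNA-miR-199a-5p, and without the thymus-rich arrays (-0.60, adjusted p = 0.0726). The Fgf1 call ended without any 1 of 12 arrays, at estimates of 0.48 to 0.69 over all 16 omissions, and remained without bleomycin replicate 2 or 3 with LNA-control, bleomycin replicate 1 with LNA-miR-199a-5p or PBS replicate 2 with LNA-miR-199a-5p. For the other 8 genes the interaction was not called, with the 95% interval from 0.15 to 0.82 for Pdgfb (limma adjusted p = 0.0742) and from 0.09 to 0.78 for Fgf7 (limma adjusted p = 0.122). The other called genes, Pdgfra and Fgf10 among them, are therefore not shown to respond to bleomycin differently under the 2 LNAs.

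**Figure D3:**
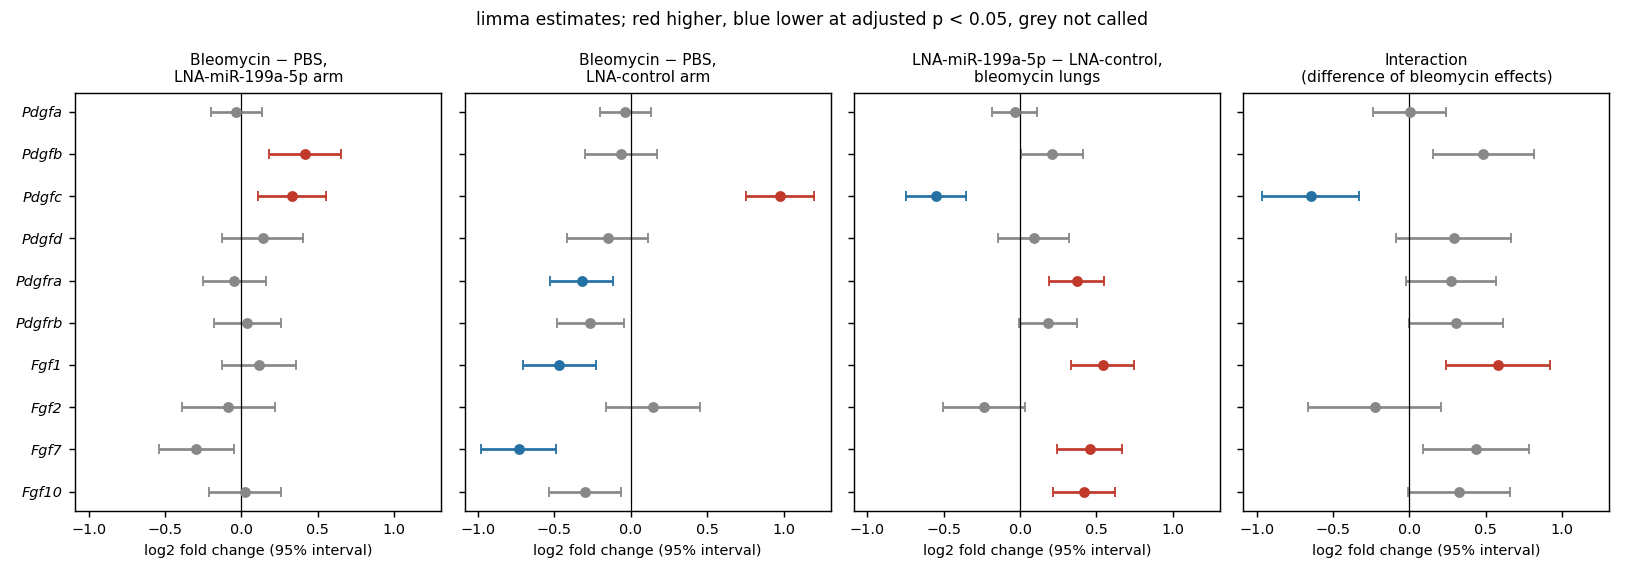
Points are limma estimates of the log2 fold change of the 10 genes in 4 comparisons, 1 per panel, and bars are 95% intervals. Red marks genes called higher, blue genes called lower and grey genes not called; Pdgfc is positive for bleomycin in both LNA arms and negative for the LNA difference in bleomycin lungs.

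The other genes of the pathway were read as 6 lists with 78 of 81 genes measured. Their counts stand beside 9.6% of all genes higher and 7.9% lower after bleomycin with LNA-control, and 13.4% higher and 11.4% lower for the LNA difference in bleomycin lungs. Among 7 genes that process or bind PDGF, 4 rose after bleomycin with LNA-control and none fell. St14, the protease matriptase, rose by 0.59 ± 0.11, Plat, the tissue plasminogen activator that releases PDGF-C, by 0.55 ± 0.11 (limma adjusted p = 0.00212), the receptor-like gene Pdgfrl by 0.44 ± 0.09 and the proprotein convertase Furin by 0.29 ± 0.09. With LNA-miR-199a-5p in bleomycin lungs 2 of the 7 were lower, Plau, the urokinase that can release PDGF-D, at -0.48 ± 0.09 and Pdgfrl at -0.30 ± 0.07. Plat itself differed by -0.23 there and was not called.

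Among FGF receptors, co-receptors and carriers, 3 of 9 fell after bleomycin with LNA-control and none rose, although 0 were called without the thymus-rich arrays. The genes that fell were Fgfbp1, which frees FGFs from matrix, at -0.83 ± 0.20, Fgfr4 at -0.49 ± 0.13 and Fgfr2, whose epithelial form binds FGF7 and FGF10, at -0.46 ± 0.15 (limma adjusted p = 0.0442). Within bleomycin lungs 5 of the 9 were higher with LNA-miR-199a-5p and none lower, led by Fgfr4 (0.65 ± 0.12, limma adjusted p = 0.000887) and Fgfr3 (0.57 ± 0.13). Of 14 other FGF ligands, Fgf18, an alveolar mesenchymal factor, fell after bleomycin with LNA-control by 0.64 ± 0.12 on the log2 scale. In bleomycin lungs Fgf22 was higher with LNA-miR-199a-5p (0.34 ± 0.07) and Fgf21 lower (-0.31 ± 0.11).

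Feedback and target genes of the pathway did not move as a block. Of 16, 2 rose and 5 fell after bleomycin with LNA-control, and 1 was higher and 5 were lower with LNA-miR-199a-5p in bleomycin lungs. Etv4, an ETS transcription factor induced by FGF signalling, averaged 7.15 in bleomycin lungs given LNA-miR-199a-5p and 8.53 in those given LNA-control, with 7.12 and 7.18 in PBS lungs in that order. It rose after bleomycin with LNA-control by 1.35 ± 0.20 (limma adjusted p = 0.000214), was lower with LNA-miR-199a-5p in bleomycin lungs at -1.39 ± 0.18 (limma adjusted p = 5.86e-05), and its interaction was -1.33 ± 0.29 (limma adjusted p = 0.0120). Phlda1 rose with LNA-control by 0.41 ± 0.10, while Spry1, an inhibitor of receptor tyrosine kinase signalling, was at -0.61 ± 0.13 and Spred2 at -0.38 ± 0.10. Spred1, another inhibitor of that pathway, was lower with LNA-miR-199a-5p in bleomycin lungs at -1.09 ± 0.15.

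Of 17 measured adaptors and MAP kinase genes, 2 fell after bleomycin with LNA-control, the FGF receptor adaptor Frs2 (-0.25 ± 0.07) and the Ras activator Sos2 (-0.29 ± 0.09). In bleomycin lungs 2 were higher with LNA-miR-199a-5p, Map2k1 (0.24 ± 0.07) and Mapk3 (0.46 ± 0.14). Counts of 2 in 17 are close to the shares over all genes, so they say nothing particular about this list. Heparan sulfate genes, whose products hold FGFs at the cell surface, had the most calls after bleomycin with LNA-control, 7 higher and 2 lower of 15. The sulfatase Sulf2 rose by 0.77 ± 0.16, the glypican Gpc1 by 0.55 ± 0.14 and perlecan, Hspg2, by 0.27 ± 0.06, while Gpc3 was at -0.28 ± 0.07. With LNA-miR-199a-5p in bleomycin lungs 1 of the 15 was higher and 4 were lower, led by the syndecan Sdc4 (-0.91 ± 0.10, limma adjusted p = 2.78e-05) and Hspg2 (-0.34 ± 0.05). No pathway gene was called for the LNA difference in PBS lungs.

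The median log2 fold changes of these lists after bleomycin with LNA-control ran from -0.14 to 0.31 and those of the LNA difference in bleomycin lungs from -0.15 to 0.37. After bleomycin with LNA-control, leaving out the thymus-rich arrays gave 0 called FGF receptor genes, 3 feedback genes, 0 adaptors and 5 heparan sulfate genes. Leaving out the third PBS arrays gave 1, 3, 0 and 3 in that order, the fat and heart covariates gave 1, 3, 1 and 3, and the replicate block gave 3, 3, 0 and 5. PDGF processing genes numbered 3 or 4 under all of these. Counts for bleomycin with LNA-control also rested in part on the 3 PBS arrays with LNA-control. Called heparan sulfate genes numbered 5, 4 and 4 without replicate 1, 2 or 3, feedback genes 4 and 3 without replicate 2 or 3, and FGF receptor genes 1 without either. In the LNA comparison of bleomycin lungs, 3 heparan sulfate genes were called without bleomycin replicate 1, 4 or 5 with LNA-control, bleomycin replicate 4 with LNA-miR-199a-5p or PBS replicate 2 with LNA-control. Without both thymus-rich arrays, 2 genes each were called there among FGF receptor, feedback and heparan sulfate genes. With the fat and heart muscle covariates all 6 lists had 0 calls there, and with the RNA integrity number as covariate 3 FGF receptor and 3 heparan sulfate genes were called. The counts of 1 or 2 for other FGF ligands and for adaptors were too small to hold under single omissions. In the bleomycin comparison with LNA-control, 3 other FGF ligands were called without bleomycin replicate 2 of that LNA, and 0 adaptors without PBS replicate 3 of that LNA. In the LNA comparison of bleomycin lungs, 5 adaptors were called without bleomycin replicate 1 with LNA-miR-199a-5p, and 0 without replicate 4 of either LNA or replicate 5 with LNA-control.

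**Figure D4:**
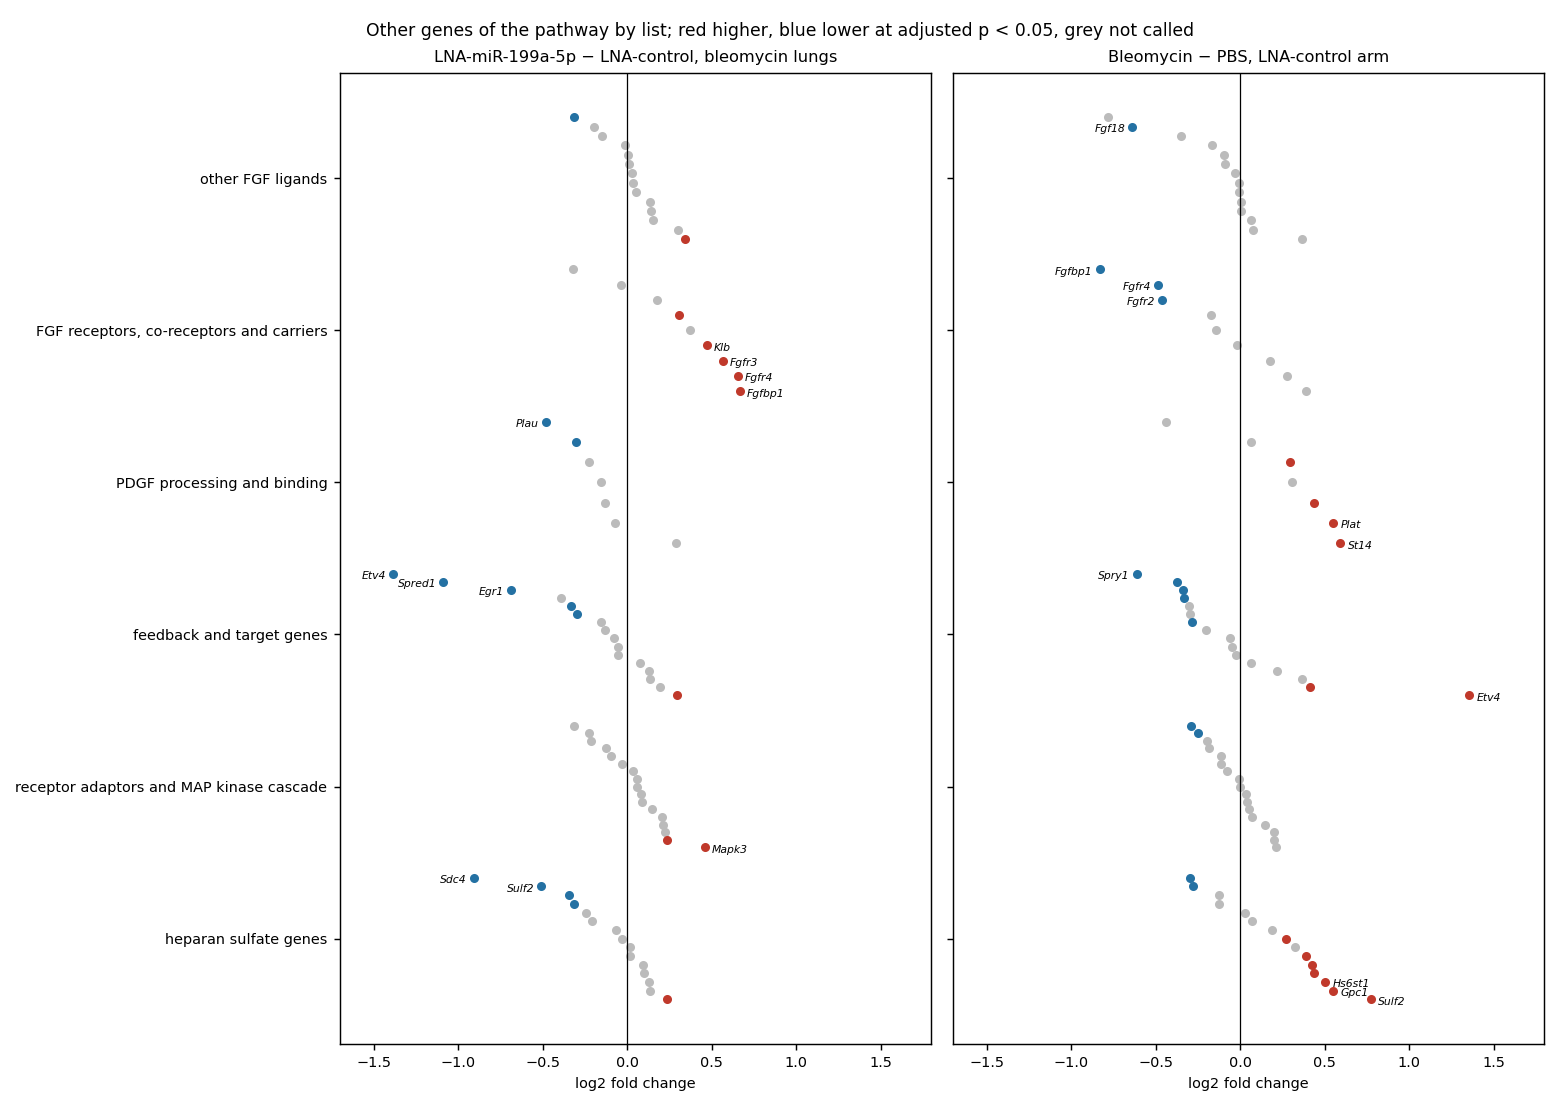
Points are the 78 measured pathway genes outside the 10, arranged by list on the vertical axis with the log2 fold change on the horizontal axis. Red is higher, blue lower and grey not called, the left panel is the LNA difference in bleomycin lungs and the right panel bleomycin against PBS with LNA-control; Etv4 lies at -1.39 on the left and 1.35 on the right.

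Markers of several cell types changed in comparisons in which some of the 10 genes were called, and their part in the results was not tested. Resident fibroblasts are a main source of Fgf7, Fgf10 and Pdgfra, and their list averaged 11.98 to 12.28 per array in bleomycin lungs given LNA-miR-199a-5p and 11.54 to 12.07 in those given LNA-control, with 11.85 to 12.04 in the 6 PBS lungs. Of its 8 genes, 5 were higher and 1 lower with LNA-miR-199a-5p in bleomycin lungs, with estimates from -0.85 to 1.21. Tcf21 (0.73 ± 0.18) and Inmt (1.21 ± 0.21) were among the higher ones. Because 1 gene was called lower, the list did not move as a block. After bleomycin with LNA-control 1 rose and 3 fell, with estimates from -1.07 to 1.06. The pericyte list, beside Pdgfrb, averaged 9.97 to 10.26 in bleomycin lungs given LNA-miR-199a-5p and 9.83 to 9.89 in those given LNA-control, with 4 of 8 genes higher and none lower. Pdgfb was called only for bleomycin with LNA-miR-199a-5p. There, 4 of 8 platelet and megakaryocyte genes were lower and none higher (median -0.66), and 3 of 10 endothelial genes were higher and none lower. The platelet list averaged 9.56 to 10.37 with LNA-miR-199a-5p and 8.85 to 9.35 with LNA-control in bleomycin lungs, and 10.31 to 10.50 in PBS lungs. All 8 measured platelet genes fell after bleomycin with LNA-control, and 7 of 8 were higher with LNA-miR-199a-5p in bleomycin lungs, with Pf4 at 0.65 ± 0.09. The endothelial list had 9 of 10 genes higher with LNA-miR-199a-5p in bleomycin lungs. Its array means there were 13.42 to 13.65, against 12.87 to 13.17 with LNA-control, and 6 of the 10 fell after bleomycin with LNA-control.

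Macrophage genes changed in the same directions as Pdgfc in both main comparisons. The list averaged 11.09 to 11.25 in bleomycin lungs given LNA-miR-199a-5p and 12.42 to 12.87 in those given LNA-control, against 10.72 to 10.81 and 10.48 to 10.61 in the PBS lungs in that order. All 10 of its genes rose after bleomycin with LNA-control and all 10 were lower with LNA-miR-199a-5p in bleomycin lungs. Heart muscle and fat genes were higher with LNA-miR-199a-5p in bleomycin lungs too. The heart muscle list averaged 11.94 to 12.74 with LNA-miR-199a-5p and 11.29 to 11.89 with LNA-control in bleomycin lungs, with 8 of 8 genes higher, and the fat list averaged 12.08 to 12.41 and 11.10 to 11.70 there, with 5 of 9 higher. The smooth muscle list had 4 of 6 genes higher in that comparison and averaged 12.20 to 12.69 with LNA-miR-199a-5p and 11.96 to 12.09 with LNA-control. Array values have no true zero, so none of these markers can be called absent.

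**Figure D5:**
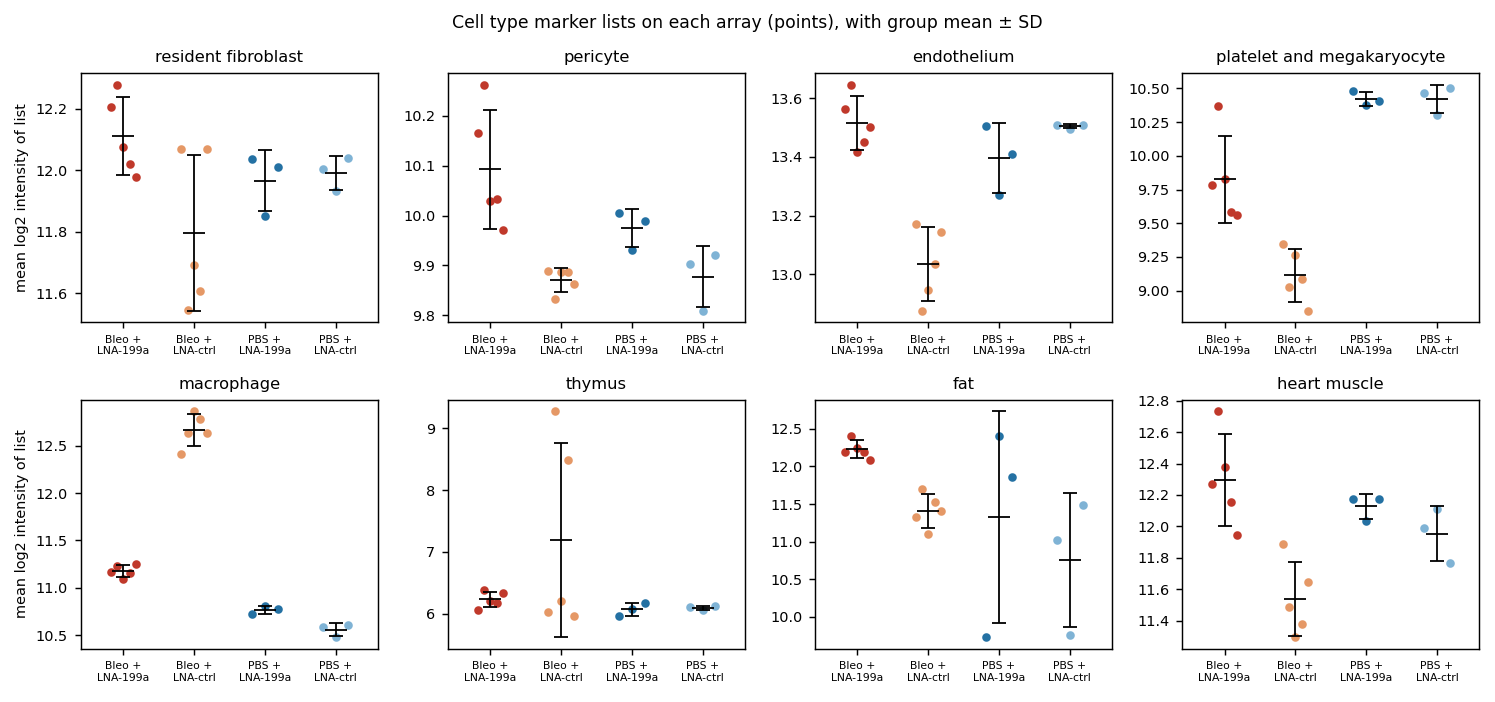
Each panel plots 1 marker list, with the mean log2 intensity of its genes on the vertical axis and the 4 groups along the horizontal axis; points are arrays and bars are the group mean ± SD. Macrophage genes are highest in bleomycin lungs given LNA-control, platelet genes lowest there, and the thymus list is raised on 2 of those 5 arrays.

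Over the 16 arrays, the genes whose pattern was most like each of the 4 genes with the smallest p over the groups are named as a description. The arrays share the 4 treatment groups, which any changed gene follows in part. Pdgfc was most like the metallothionein gene Mt1 (Pearson r = 0.978) and the macrophage scavenger receptor gene Msr1 (r = 0.968). For Fgf7 these were Pard6g (r = 0.978) and Pcdhac2 (r = 0.975), for Fgf1 Slc7a10 (r = 0.966) and the receptor gene Fgfr4 (r = 0.956), and for Pdgfra Cr1l (r = 0.933) and D630013G24Rik (r = 0.929).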

How the data were processed

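Total RNA extracted with TRIzol for 16 whole-lung samples was labelled with Cy3 and hybridised to 1-colour Agilent arrays, per the labels' protocols. The deposited table holds log2 intensities of 62976 spots. The submitters' processing notes name limma with no version. In the deposited log2 values the 16 sorted arrays lay within 0.0974 of each other, as quantile normalization leaves them, and they were used without further scaling. The background correction is not given in the sources used here. GEO's platform annotation gave 1 gene to each of 31465 spots and none to 31511. Of the former, 29050 matched RefSeq, which changed 2933 symbols, and 6086 of the 20863 genes had several spots. The spot with the highest mean stood for a gene.

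One limma fit (limma 3.58.1, R 4.3.3, lmFit and eBayes) of 4 group means over all 16 arrays gave 6 comparisons, and Benjamini-Hochberg adjustment ran over 20863 genes. Genes with an adjusted p below 0.05 were called, and "rose" or "fell" is used of those. Over 60 tests of the 10 genes, 14 passed. The number of arrays limits the precision. The fit was tested on simulated data with independent noise in each gene and array. These data held none of the tissue differences between arrays described above, so they do not test how those bear on the calls. Named genes were all 10, from each pathway list at most 4 (by smallest p in the bleomycin comparison of the LNA-control arm) plus at most 2 (by smallest p in the LNA comparison of bleomycin lungs), defining marker genes, and the 2 most correlated genes of 4 members. The members and lists were chosen with earlier results of these data known. Some listed genes are not reported here. Alternatives were array weights, the replicate number as a block, RNA integrity and marker lists as covariates, other spot rules, priors and scaling, only the groups compared, a filter on dim genes, and arrays left out.

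Same-numbered PBS arrays of the different LNAs deviated together (correlations of 0.108, 0.411 and 0.497, with -0.452 to 0.287 between other numbers), so the block is printed beside that comparison. Same-numbered bleomycin arrays did not (-0.373 to 0.027). Within groups the lowest correlation between arrays was 0.985, and no pair of arrays was identical (smallest median absolute difference 0.0942).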

Additional observations from a re-analysis of the deposited data

Results flagged for a closer look

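Pdgfrb had a low array, bleomycin replicate 2 with LNA-control, at 11.63 while the 4 other arrays of that group read 11.90 to 11.97. The gap to its neighbour was 0.775 of the group's range, above Dixon's value of 0.710 for 5 samples. It was the only one of 20 groups of 5 arrays tested to pass, and chance gives about 1 in 20.

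The bleomycin difference of Pdgfc differed between the LNAs by -0.64, and that of Fgf1 by 0.58, each by the limma interaction term. Both calls were lost under some single omissions and some other settings, as given with the interaction above. For Pdgfc all 5 arrays of both bleomycin groups lay above the PBS arrays of the same LNA. For Fgf1 the 5 bleomycin arrays with LNA-control all lay below the PBS arrays with LNA-control, while with LNA-miR-199a-5p the groups overlapped.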

How the results depend on the processing

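Here the comparisons are bleomycin against PBS with LNA-miR-199a-5p (A) or with LNA-control (B), the LNA difference in bleomycin (C) or PBS lungs (D), bleomycin with LNA-miR-199a-5p against PBS with LNA-control (E) and the interaction (F). Of the 10 genes, 2, 4, 5, 0, 1 and 2 were called in A to F, and of all genes 2786, 3651, 5188, 10, 3037 and 1462. Only genes above the median level gave 1 of the 10 in A and 1 in F, where Pdgfc, Pdgfd and Fgf2 lay below the median and were not tested. As Pdgfc was the only call of the 10 in E, none of the genes tested under this filter was called in E. Array weights gave 1 in A and 4 in F, and 6713 of all genes in B, 394 in D, 4681 in E and 3862 in F. The replicate block gave 0 of the 10 in A, 0 in E and 1 in F, and 663 of all genes in A, 2429 in B, 3 in D, 1209 in E and 947 in F. It ended the Pdgfra call in B (-0.25, adjusted p = 0.144) and those of Pdgfb in A (0.35, adjusted p = 0.0937), Pdgfc in A (0.29, adjusted p = 0.147) and E (0.38, adjusted p = 0.0648) and Fgf1 in F (adjusted p = 0.0517), and changed no other call of the 10. The integrity number as covariate gave 0 of the 10 in A and 1 in F, and 1162 of all genes in A, 2981 in C, 1615 in E and 733 in F. Only the groups compared gave 0 of the 10 and 271 of all genes in A and 0 of all genes in D, and has no separate value for F. The mean of spots gave 1 of the 10 in F, and the trended prior and the 75th percentile 1 each in A. Without the thymus-rich arrays the counts were 1 of the 10 in A, 2 in B and 0 in F, and 2258 of all genes in B, 2356 in C, 3 in D and 525 in F. Without the third PBS arrays they were 1 in A and 1 in F, and 791 of all genes in A, 2268 in B, 31 in D, 1144 in E and 513 in F. Fat and heart covariates gave 0 of the 10 in A, 2 in B and 0 each in C, E and F, and 445, 1989, 134, 167 and 196 of all genes in A, B, C, E and F. Symbols as in the platform table, and fitting every spot (chosen after seeing the data), moved no such count by over 1.5 times. Leaving out 1 array gave 0 to 2, 3 to 4, 5 to 5, 0 to 0, 0 to 1 and 0 to 3 of the 10, and 1186 to 3534, 2293 to 3984, 3785 to 5640, 2 to 121, 618 to 3618 and 632 to 2215 of all genes. In A the count of all genes was 1721 without bleomycin replicate 5 with LNA-miR-199a-5p and 1360, 1400 and 1186 without PBS replicates 1, 2 and 3 of that LNA; in B it was 2293 without PBS replicate 3 with LNA-control; in E omitting PBS replicates 1, 2 and 3 with LNA-control gave 1677, 1521 and 618. In D it was 6 without bleomycin replicate 1 with LNA-control, 2 without bleomycin replicate 2 with LNA-miR-199a-5p, 2 and 4 without PBS replicates 2 and 3 with LNA-control, and 3, 2 and 121 without the PBS replicates 1, 2 and 3 with LNA-miR-199a-5p. In F omitting bleomycin replicates 1, 3, 4 and 5 with LNA-control gave 913, 2215, 918 and 912, omitting the PBS arrays with LNA-control gave 844, 632 and 689, and omitting PBS replicates 1 and 2 with LNA-miR-199a-5p gave 818 and 840. Over 752 single-gene values under the 13 other settings, 689 kept direction and call, 36 lost a call, 6 gained one and 21 turned direction, none of the last called. The turned values were, with array weights, Fgf1 in D 0.0046; with the block, Pdgfra in A 0.0295; with the integrity number, Pdgfa in F -0.0503; with the mean of spots, Pdgfra in A 5e-04, Pdgfa in B 0.0031, Pdgfb in B 0.0192, Fgf10 in D -0.0026, Fgf1 in E -0.1637 and Pdgfa in F -0.0351. Without the thymus-rich arrays they were Pdgfa in B 0.0012 and in F -0.0350, without the third PBS arrays Fgf10 in A -0.0379 and Pdgfrb in E 0.0011, and with the 75th percentile Pdgfa in F -0.0081. With the fat and heart covariates they were Pdgfa in B 0.0437 and in F -0.1212, Pdgfb in B 0.1220 and in C -0.0144, Fgf2 in D 0.0045, Pdgfrb in E 0.0029 and Fgf1 in E -0.0328. Under single omissions direction turned for Pdgfa in B (-0.0702 to 0.0127), D (-0.0700 to 0.0104) and F (-0.0471 to 0.0364), Pdgfd in C (-0.0012 to 0.1732) and E (-0.1517 to 0.0228), Pdgfra in A (-0.1113 to 0.0410) and E (-0.0071 to 0.1071), Pdgfrb in A (-0.0389 to 0.1151) and E (-0.1620 to 0.0011), Fgf1 in D (-0.1453 to 0.0579), Fgf2 in B (-0.0358 to 0.2782), D (-0.1865 to 0.1274) and E (-0.2714 to 0.0425), Fgf7 in D (-0.0034 to 0.0565) and Fgf10 in A (-0.0379 to 0.1242) and D (-0.0056 to 0.1565). The cause was not tested.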
